A study of Mus musculus with 6 samples.

Results

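Electrons from NADH and succinate pass through complexes I and II of the inner mitochondrial membrane to ubiquinone, through complex III to cytochrome c and through complex IV to oxygen. Complexes I, III and IV pump protons as this happens, and complex V, the ATP synthase, makes ATP as the protons flow back. Most of the subunits are encoded in the nucleus, and several complex IV subunits exist as a common form and a form used mainly in muscle, lung or testis. The genes described here were those on the array whose names began with Nduf (complex I), Sdh and a letter from a to d (complex II), Uqcr (complex III), Cox and a digit (complex IV) or Atp5 (complex V). The rule found 87 of the 27962 gene names on the array, measured by 120 of 41174 probes, and took for each gene the probe with the highest mean signal. It also took in 6 assembly factors, which build the complexes without staying in them, and 3 proteins that share only a name stem with the subunits.

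The cells were 4T1.2, a metastatic mouse mammary carcinoma line of the BALB/c strain. The IRF7 group carried the pMSCV retroviral vector with Irf7, which encodes a transcription factor of the type I interferon response, and the base vector group carried the same vector empty. Both groups had been selected with puromycin and single-cell cloned, and several clones were then pooled, so each group was 1 pooled population measured on 3 single-colour arrays, which the series describes as independent experiments. The p-values therefore measure the spread between cultures of these populations, and the number of arrays limits the precision. The 3 IRF7 arrays and base vector replicate 1 shared slide 1, while base vector replicates 2 and 3 were on slide 2.

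Irf7 itself, the introduced gene, had processed signals of 4486, 4963 and 5012 in IRF7 cells, against 246, 195 and 210.5 in base vector cells, a 19.4-fold difference. Of 9 epithelial markers, 7 were well above background on all arrays, and the summed signal of the list, divided by the 75th percentile of each array, was 378.0 to 396.0 in IRF7 cells and 343.0 to 363.0 in base vector cells. Of these 7 markers 3 were higher in IRF7 cells and 1 was lower (limma), where 31.8% and 29.0% of all genes tested were. Higher were Krt7, with a log2 change of 2.626, Epcam, with 1.196, and Krt8, with 0.1465. Cldn3 was the lower one, with -0.2905. The median over the 7 was 0.04, which does not show the large rises of Krt7 and Epcam. Of 9 leukocyte markers 3 were well above background on all arrays, with scaled sums of 2.56 to 2.74 in IRF7 cells and 2.01 to 2.11 in base vector cells, and Cd79a and Itgam were well above it on none. Of 10 fibroblast, endothelial and fat markers 2 were well above background on all arrays and 5, Pecam1 and Col1a1 among them, on none, with scaled sums of 2.64 to 2.74 in IRF7 cells and 5.73 to 5.8 in base vector cells. These markers went both ways: Pdgfra had a log2 change of -1.21 and Cdh5 one of 1.06, Dcn was well above background on all 3 base vector arrays and no IRF7 array, and Fabp4 on all 3 IRF7 arrays and no base vector array. The part of these marker shifts in the results below was not tested. In total RNA of a culture, fewer cells of a type and less RNA per cell cannot be told apart.

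The probes behind the main results are shown first, since each value below is the hybridisation to 1 stretch of 60 bases. Positions are those of the files, on mouse build mm7. Among the probes used, 1 for each gene, those of Uqcrc2 and Ndufc2 read the largest falls and that of Cox6a2 the largest rise in the processed signal. Uqcrc2 was probed at chr7:116581368-116581427 on the plus strand, Ndufc2 at chr7:93438306-93438365 on the plus strand, and Cox6a2 at chr7:124302204-124302263 on the minus strand.
Uqcrc2 probe: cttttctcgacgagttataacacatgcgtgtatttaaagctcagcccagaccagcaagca
Ndufc2 probe: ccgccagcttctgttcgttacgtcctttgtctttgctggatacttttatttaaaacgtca
Cox6a2 probe: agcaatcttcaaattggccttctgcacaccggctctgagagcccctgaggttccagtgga

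The genes of the 5 complexes moved little and in both directions. Of the 87 genes, 84 were tested, and all 84 were well above background on all 6 arrays. In IRF7 cells 24 of them were higher, 17 were lower and 43 did not pass the test (limma, all 6 arrays, Benjamini-Hochberg adjusted p under 0.05 over 15543 genes). Over all genes tested 60.8% passed, 31.8% higher and 29.0% lower, against 48.8% of the 84. Their median log2 change, IRF7 minus base vector, was 0.05, beside 0.03 over all genes, and the median size of a change was 0.13, beside 0.24. The changes ran from -0.58 for Uqcrc2 to 0.73 for Cox6a2. Only Cox6a2, Cox18, Ndufc2 and Uqcrc2 passed the test with a change of at least 0.5 on the log2 scale, a size that 19.9% of all genes reached. The groups did not overlap for 30 genes higher and 23 lower in IRF7 cells, where 35.6% and 32.2% of all genes did so.

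The calls of small changes depended on the slide and on the scaling. With the slide as a block 19 of the 84 passed, all of them among the 41 above. They were 10 higher and 9 lower, where 45.9% of all genes passed, 23.5% higher and 22.4% lower. Within slide 1, where base vector replicate 1 is assumed to vary like the other arrays, 23 passed. They were 13 higher and 10 lower, where 48.5% of all genes passed, 24.9% higher and 23.6% lower. All 41 kept their direction in both fits, which rest on the same difference between the IRF7 arrays and that 1 base vector array. Centring each array on its median in place of its 75th percentile left 4 higher and 6 lower. Values not scaled between arrays gave 40 higher and 3 lower, 93% of the calls in the higher direction against 58.5% above. Without scaling the median of all genes was 0.23 and that of the 84 genes was 0.25, so both moved by the same amount. The difference between the 2 medians, 0.02 here, was 0.065 with normexp background correction, -0.0067 with quantile normalization, -0.012 without IRF7 replicate 1 and -0.0075 without base vector replicate 2. With quantile normalization 25 were higher and 26 lower, 49% in the higher direction.

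**Figure D1:**
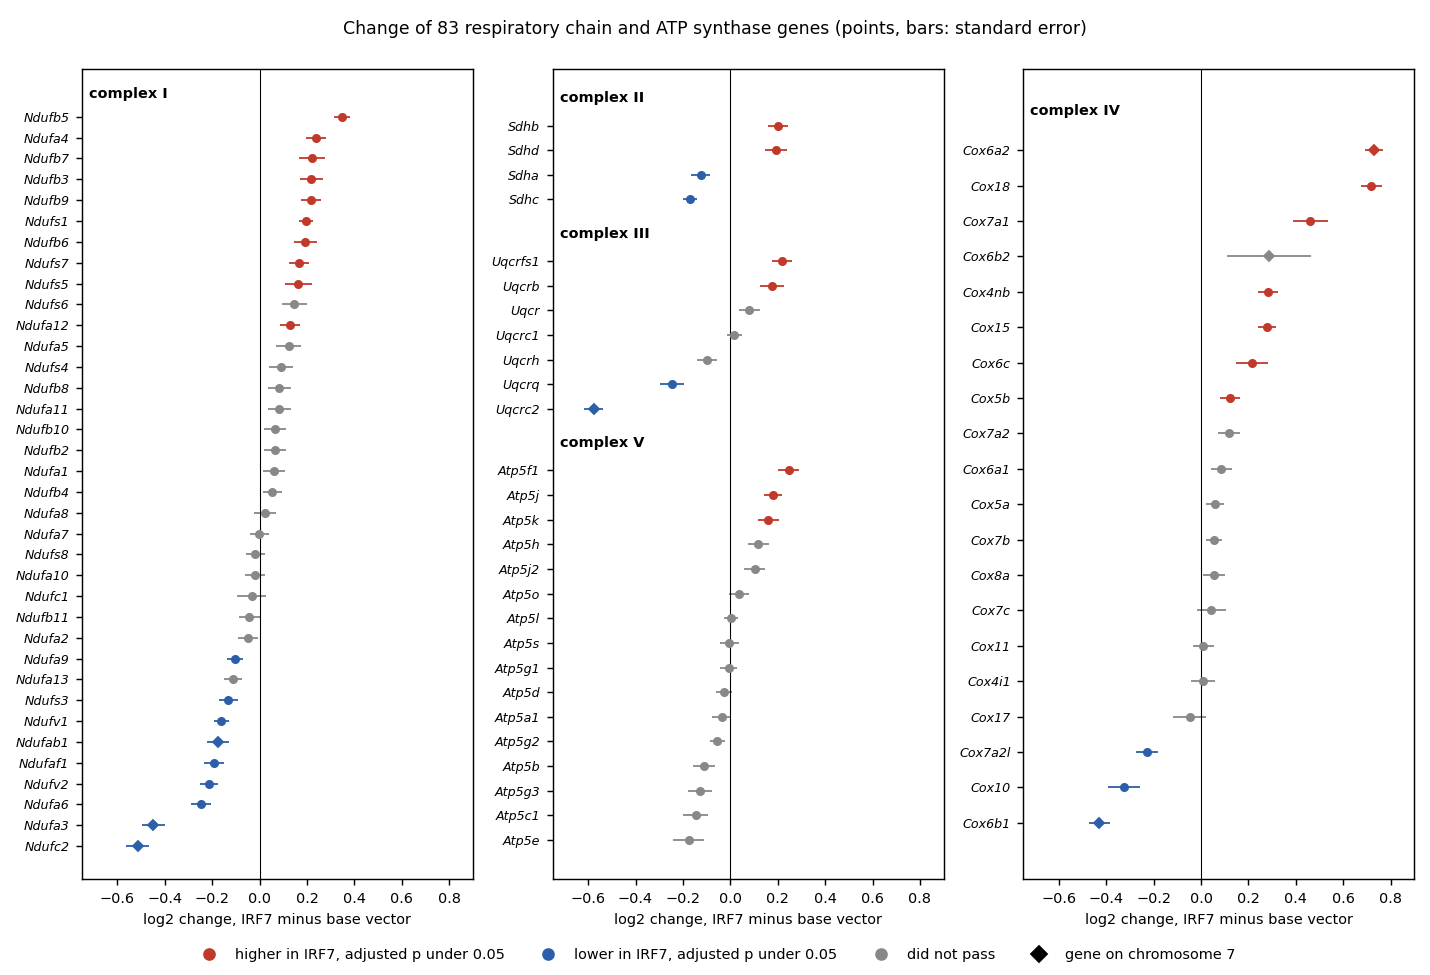
The log2 change of each of 83 tested genes (IRF7 minus base vector, horizontal axis) is plotted by complex, with its standard error as a bar; red marks genes higher in IRF7 cells, blue genes lower and grey those that did not pass, and diamonds are genes on chromosome 7. The points crowd around 0 in every complex, complex V has no blue point, and the diamonds include the 2 lowest values.

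Of 23 genes that passed and were named for a large change in their complex, for lying on chromosome 7 or for probes that disagreed, 6 kept their direction and their call under all 19 alternatives that were run for single genes. Cox18, Cox6a2, Cox7a1 and Ndufb5 were the 4 that were higher in IRF7 cells. Uqcrc2 and Ndufc2 were the 2 that were lower. Their IRF7 arrays and base vector arrays did not overlap, which adds no support, since the 6 were picked for passing in every setting. Of all genes 35.6% did not overlap with IRF7 higher and 32.2% with IRF7 lower.

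**Figure D2:**
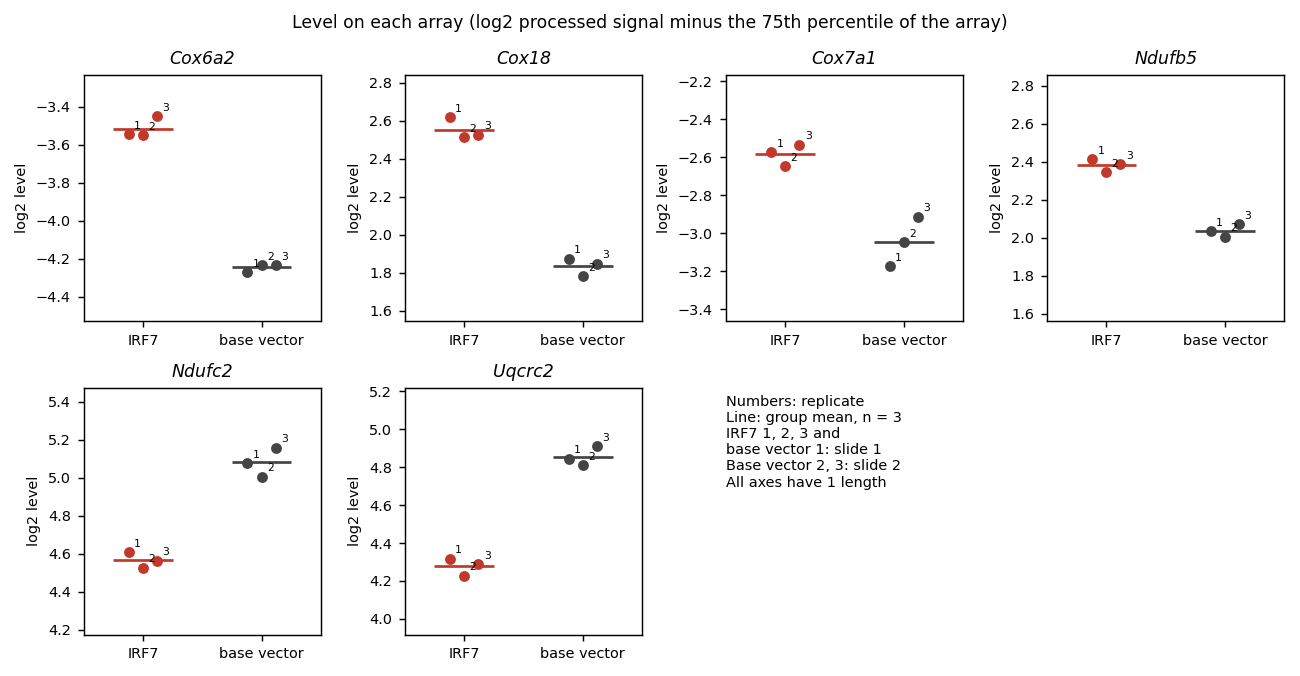
The log2 level (processed signal minus the 75th percentile of the array, vertical axis) of 6 genes is plotted for each of 3 IRF7 arrays at the left and 3 base vector arrays at the right, with the group mean as a line; all axes have the same length in log2 units, so distances can be compared between panels. The groups are apart in every panel, by 0.35 for Ndufb5 and 0.73 for Cox6a2, and base vector replicate 1, on the same slide as the IRF7 arrays, lies with replicates 2 and 3.

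Complex I takes electrons from NADH and is the largest of the 5. Of its 37 tested genes 10 were higher in IRF7 cells, 10 were lower and 17 did not pass, and the median change was 0.05. So 54.1% passed, where 60.8% of all genes did, 31.8% higher and 29.0% lower. The 7 core subunits, most of which carry the flavin or iron-sulfur clusters, had 2 higher, 4 lower and a median of -0.13. The 29 accessory subunits had 8 higher, 5 lower and a median of 0.06. With the slide as a block the core subunits had 1 higher and 2 lower, and the accessory subunits 3 higher and 3 lower. Of all genes 23.5% were higher and 22.4% lower in that fit.

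Ndufv2, a core subunit of the NADH-oxidising arm chosen after its values were seen, fell by 0.21 (limma adjusted p = 0.00484), and its partner in that arm Ndufv1, chosen likewise, fell by 0.16 (limma adjusted p = 0.00586). Ndufs1, the largest subunit of the same arm, chosen in the same way, rose by 0.20 (limma adjusted p = 0.00276). Under the slide block Ndufv2 and Ndufs1 passed, with adjusted p of 0.0471 and 0.0352 in limma, and Ndufv1 did not, with 0.0513.

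The accessory subunits held the largest rise and the largest fall of complex I. Ndufb5, a subunit of the membrane arm, had log2 levels of 2.42, 2.35 and 2.39 in IRF7 cells, against 2.03, 2.01 and 2.07 in base vector cells, a change of 0.35 (SE 0.0336, limma adjusted p = 0.000357). Ndufc2, another membrane-arm subunit, had levels of 4.61, 4.53 and 4.56 in IRF7 cells, against 5.08, 5.01 and 5.16 in base vector cells, a change of -0.51 (SE 0.0484, limma adjusted p = 0.000313). Both groups of arrays were tight, with no array near the other group. Ndufa3 was lower by 0.45 on the log2 scale and Ndufb7 higher by 0.22. Ndufa4 was higher by 0.24; it carries a complex I name and is now assigned to complex IV. Ndufb7 and Ndufa4 lost their calls under median centring. Ndufab1, the mitochondrial acyl carrier protein, was lower by 0.17 (limma adjusted p = 0.0217), and lost its call with the slide as a block (limma adjusted p = 0.0676), under median centring, over the mean of its probes and without IRF7 replicate 2 or 3 or base vector replicate 1 or 3.

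Complex II passes electrons from succinate to ubiquinone, and its 4 subunits split. Sdhb, which holds the iron-sulfur clusters, had log2 levels of 4.23, 4.16 and 4.25 in IRF7 cells, against 4.04, 3.96 and 4.04 in base vector cells, a change of 0.20 (SE 0.0417, limma adjusted p = 0.00772). Sdhd, a membrane anchor, was higher by 0.19 (limma adjusted p = 0.0143). Sdhc, the other anchor, had levels of 3.73, 3.72 and 3.75 in IRF7 cells, against 3.88, 3.91 and 3.94 in base vector cells, a change of -0.17 (SE 0.0294, limma adjusted p = 0.00366). Sdha, the flavin-bearing catalytic subunit, was lower by 0.13 (limma adjusted p = 0.036). All 4 thus passed, where 60.8% of all genes did. The arrays of the groups did not overlap for any of the 4. Over all genes the groups did not overlap for 35.6% higher and 32.2% lower in IRF7 cells. None of the 4 passed with the slide as a block, where the adjusted p in limma was 0.0575 for Sdhc, 0.0808 for Sdhb, 0.13 for Sdhd and 0.21 for Sdha. None passed under median centring. Sdha also lost its call when any array but IRF7 replicate 3 was left out (limma adjusted p up to 0.851 over all alternatives).

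Complex III hands electrons from ubiquinol to cytochrome c. Of its 7 genes 2 were higher in IRF7 cells, 2 were lower and 3 did not pass. So 57.1% passed, where 60.8% of all genes did, 31.8% higher and 29.0% lower. Uqcrc2, 1 of the 2 core proteins, had log2 levels of 4.32, 4.23 and 4.29 in IRF7 cells, against 4.84, 4.81 and 4.91 in base vector cells. Its change of -0.58 (SE 0.0411, limma adjusted p = 0.000107), a fold of 0.67, was the lowest of the 84. The other core protein, Uqcrc1, chosen after its values were seen, had a change of 0.02 (SE 0.0318, limma adjusted p = 0.695). Uqcrfs1, the Rieske iron-sulfur protein, was higher by 0.22 and Uqcrb by 0.18, and Uqcrq was lower by 0.25. These last 3 passed over all arrays and not with the slide as a block, where their adjusted p in limma was 0.0637, 0.188 and 0.0581, nor under median centring. Uqcrb also lost its call without IRF7 replicate 1 or 3 or base vector replicate 2.

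Complex IV, cytochrome c oxidase, reduces oxygen. Of its 23 genes 20 were tested, with 7 higher in IRF7 cells, 3 lower and 10 that did not pass, and a median change of 0.07. So 50% passed, where 60.8% of all genes did, 31.8% higher and 29.0% lower. Its 13 tested subunits had 4 higher and 1 lower. The 10 of them that the files do not place on chromosome 7 all had changes above 0, from 0.01 to 0.46. Of these 3 passed higher, 30%, where 31.8% of all genes were higher. Cox7a1, which has no position at all in the files, gave the 0.46 and was among the 3, so its place in this set is not known from them. The exception in the lower direction was Cox6b1, the common form of the subunit that faces the intermembrane space, with log2 levels of 3.06, 2.94 and 2.97 in IRF7 cells, against 3.41, 3.38 and 3.47 in base vector cells (change -0.43, SE 0.0458, limma adjusted p = 0.00052).

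The highest values of all came from tissue-restricted forms of complex IV subunits and from assembly factors. Cox6a2, the heart and skeletal muscle form of subunit 6A, had processed signals of 111, 119 and 133 in IRF7 cells, against 66.9, 61.0 and 62.2 in base vector cells, dim but well above background on all 6 arrays. Its log2 change was 0.73 (SE 0.0379, limma adjusted p = 3.34e-05), and 0.38 when the background was corrected with normexp, below the 0.72 of Cox18 in that setting. Cox7a1, the muscle form of subunit 7A, had signals of 217, 222 and 252 in IRF7 cells, against 143, 139 and 155 in base vector cells. Its change was 0.46 (SE 0.0734, limma adjusted p = 0.00265), and 0.29 with normexp. The direction held in both settings and the size did not. The common forms Cox6a1 and Cox7a2, chosen after their values were seen, had changes of 0.09 (limma adjusted p = 0.156) and 0.12 (limma adjusted p = 0.0697).

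The other restricted forms gave no rise that passed. Cox6b2, the testis form of subunit 6B, had log2 levels of -2.05, -2.09 and -2.24 in IRF7 cells, against -2.02, -2.67 and -2.54 in base vector cells. The first base vector array lay above all IRF7 arrays and the other two lay below them. The change was 0.29 over all arrays (SE 0.178, limma adjusted p = 0.212), -0.11 with the slide as a block, and 0.48 without base vector replicate 1 (limma adjusted p = 0.00535). Cox4i2, Cox8b and Cox8c, forms found mainly in lung, in muscle and in testis, were below that limit on all 6 arrays.

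Among the assembly factors 2 were higher in IRF7 cells, 2 lower and 2 did not pass. So 66.7% passed, where 60.8% of all genes did, 31.8% higher and 29.0% lower. Cox18 encodes the insertase that places a tail of the mitochondrially encoded subunit Cox2 across the membrane. Its log2 levels were 2.62, 2.51 and 2.53 in IRF7 cells, against 1.87, 1.78 and 1.85 in base vector cells, a change of 0.72 (SE 0.0435, limma adjusted p = 5.79e-05) and a fold of 1.65. Cox15, which works in heme A synthesis and was chosen after its value was seen, was higher by 0.28 (limma adjusted p = 0.00134). Cox10, which carries out the step before it, had levels of -2.96, -2.83 and -3.05 in IRF7 cells, against -2.56, -2.61 and -2.70 in base vector cells, a change of -0.33 (SE 0.068, limma adjusted p = 0.00783). The complex I assembly factor Ndufaf1, chosen after its value was seen, fell by 0.19 (limma adjusted p = 0.00989) and lost its call under the slide block (limma adjusted p = 0.0711).

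Of the 3 proteins that share a stem without being subunits, Cox4nb, named for lying beside Cox4i1, now called Emc8 and chosen after its value was seen, was higher by 0.28 (limma adjusted p = 0.00176). Cox7a2l, which helps complexes III and IV to join, was lower by 0.23 (limma adjusted p = 0.00603). It lost its call under median centring (limma adjusted p = 0.0726), on slide 1 alone (limma adjusted p = 0.0533) and without scaling, where the change was -0.029. Atp5s, the other of the 3, did not pass by the probe used, while its dimmer probe read -0.21 (limma adjusted p = 0.00639 over all probes).

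Complex V had few calls. Of its 16 genes 3 were higher in IRF7 cells, none was lower (limma) and 13 did not pass, so 18.8% passed where 60.8% of all genes did. With the slide as a block 1 of the 16 passed, where 45.9% of all genes did, and with quantile normalization 4 were higher and 5 lower. At an unadjusted p under 0.05 limma had 3 of them lower. Lower calls numbered 4 with a trended and robust eBayes, 3 over the mean of measured probes, 1 with normexp and up to 3 when an array was left out. By the probes used, the 5 subunits of the catalytic F1 head all had changes below 0, from -0.18 to -0.03. None passed in limma (2 at an unadjusted p under 0.05, 3 with the trended and robust eBayes). The calls depended on the probe: other probes of Atp5a1 and Atp5b, chosen after their values were seen, passed lower. They read -0.22 for Atp5a1 (limma adjusted p = 0.00233 over all probes). For Atp5b they read -0.16 and -0.24 (limma adjusted p = 0.0152 and 0.00147 over all probes). The 10 subunits of the membrane part and stalk had 3 higher and 7 that did not pass. Atp5f1, the b subunit of the stalk, had log2 levels of 5.71, 5.67 and 5.71 in IRF7 cells, against 5.46, 5.37 and 5.51 in base vector cells, a change of 0.25 (SE 0.0434, limma adjusted p = 0.00403). Over the mean of its measured probes the change was 0.13 and did not pass (limma adjusted p = 0.182), nor did it pass under median centring (limma adjusted p = 0.139). Atp5j was higher by 0.18 and Atp5k by 0.16, and neither passed with the slide as a block (limma adjusted p = 0.0638 and 0.0971) or under median centring. Atp5k also lost its call without IRF7 replicate 1 or 3 or base vector replicate 1 or 2.

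The medians of the complexes did not separate the groups of arrays, as seen relative to the base vector mean of each gene. For complex IV the median over its genes was 0.14, 0.04 and 0.07 on the 3 IRF7 arrays, against 0.01, -0.04 and 0.04 on the base vector arrays. For complex I it was 0.11, 0.00 and 0.05 on the IRF7 arrays, against 0.00, -0.05 and 0.05 on the base vector arrays, and for complex V 0.03, -0.03 and 0.00 against 0.00, -0.03 and 0.04. The IRF7 and base vector arrays overlapped in each of these 3 complexes.

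The position of a gene went with its change. Of the 7 tested genes on chromosome 7, 5 were lower in IRF7 cells (Uqcrc2, Ndufc2, Ndufa3, Cox6b1 and Ndufab1), Cox6a2 was higher and Cox6b2 did not pass, and the median change was -0.43. Among the 1141 other tested genes of chromosome 7, 66.6% were lower, 7.19% were higher and the median was -0.38. Thus the 2 lowest of the 84 values were on that chromosome, where most genes were lower. Irf7 lies on chromosome 7 too. Without these 7 genes 23 were higher and 12 lower of 77, so 45.5% passed where 60.8% of all genes did. The 77 include Cox7a1, which has no position in the files.

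The same held in finer steps. For the 83 genes with a position in the files, the median change of all other tested genes within 5 Mb was compared with the gene's own change. Across these genes the Pearson correlation was 0.362 and Spearman's rho 0.356 (n = 83). Outside chromosome 7 they were 0.342 and 0.342 (n = 76); genes close together share neighbours, and all share the 6 arrays. In 12 of the 83 the neighbours had a median under -0.2, a limit chosen after the values were seen. Of these 12 genes 8 were lower. The 12 include the 7 genes on chromosome 7, 5 of them lower, so this count in large part repeats the result for that chromosome. Cox10 and Uqcrq on chromosome 11, with neighbour medians of -0.26 and -0.26, were also among the 8. Cox11 on the same chromosome, chosen after its value was seen, was among the 12 and did not pass. The neighbours of the 12 genes were often lower too: 62.5% of those of Cox10, 75.2% of those of Cox6a2 and 43.8% of those of Atp5e. Atp5e, chosen after its value was seen, did not pass. Over all genes 29.0% were lower. Of the 40 called genes with a position, 9 went against their neighbours, a count not taken over all genes. Cox6a2 was 0.73 higher where its 129 neighbours had a median of -0.37.

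**Figure D3:**
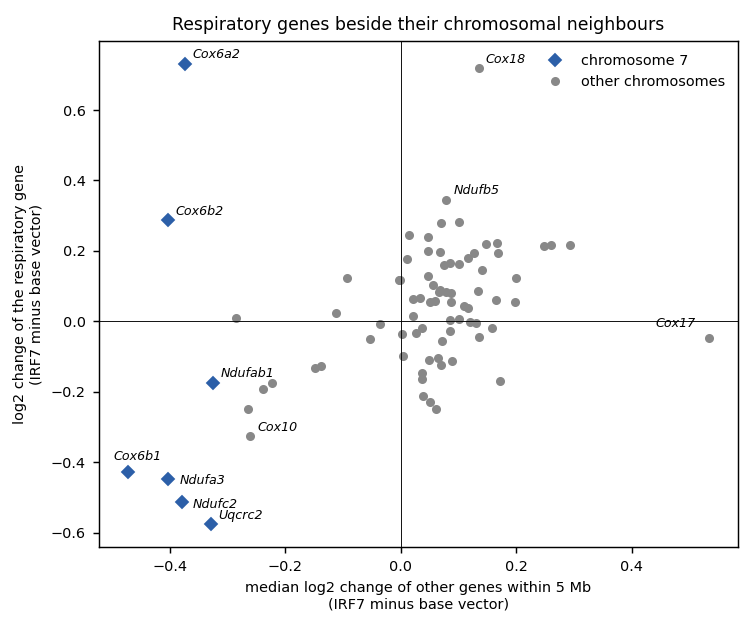
Each of 82 genes is a point, with the median log2 change of the other tested genes within 5 Mb on the horizontal axis and its own log2 change on the vertical axis (both IRF7 minus base vector); diamonds are the 7 genes on chromosome 7. The diamonds all lie left of -0.3 and 5 of them lie low, while Cox6a2 stands at 0.73.

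Several genes were read by more than 1 probe, which gave a second measurement of the same gene. Of 27 such genes 24 had at least 2 measured probes. The changes from all probes of a gene lay within 0.1 of each other for 12 genes and had opposite signs for 5, in 3 of which at least 1 probe passed the test (Atp5f1, Cox17 and Sdha). Of all measured probes on the array 58.7% passed. Where 2 probes shared at least 15 bases their changes differed by at most 0.0446 (8 pairs, median 0.021), and where they did not, by up to 0.561 (25 pairs, median 0.0922).

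The Cox18 probes show the first case. They overlap by 55 bases, in capitals here, at chr5:90185876-90185935 and chr5:90185871-90185930 on the minus strand, and read changes of 0.72 and 0.76.
Cox18 probe used: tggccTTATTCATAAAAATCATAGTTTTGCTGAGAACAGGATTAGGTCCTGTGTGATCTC
Cox18 second probe: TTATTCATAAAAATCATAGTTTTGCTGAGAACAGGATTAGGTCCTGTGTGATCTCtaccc

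The Cox17 and Sdha probes show the second. Cox17 is a copper chaperone for complex IV. Its brightest probe, designed on an expressed sequence tag with 78.3% G and C, at chr16:38059995-38060054, had a change of -0.05 (SE 0.0706, limma adjusted p = 0.589 over all probes). Its other probe, designed on the RefSeq transcript with 53.3% G and C and lying within chr16:38053879-38055971 on the same strand, read signals of 31376, 30643 and 33897 in IRF7 cells, against 21030, 18139 and 19442 in base vector cells. That probe had a change of 0.51 (SE 0.0466, limma adjusted p = 0.000303), and the 48 neighbours of the gene had a median of 0.53. The Sdha probes, both designed on its RefSeq transcript, at chr13:71261221-71261280 and chr13:71255611-71255670, had changes of -0.13 (limma adjusted p = 0.0407 over all probes) and 0.11 (limma adjusted p = 0.0714), so the direction of Sdha depended on the probe. Neither pair shares a stretch of 15 bases.
Cox17 probe used: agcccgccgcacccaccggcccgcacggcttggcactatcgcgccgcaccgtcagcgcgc
Cox17 second probe: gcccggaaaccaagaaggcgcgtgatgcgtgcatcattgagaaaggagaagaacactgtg
Sdha probe used: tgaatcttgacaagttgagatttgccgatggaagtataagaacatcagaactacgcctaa
Sdha second probe: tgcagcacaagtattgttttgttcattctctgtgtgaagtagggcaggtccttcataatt

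Atp5f1 gave 0.25, 0.16 and -0.01 by its 3 probes, the last with signals of 44.5 to 55.8 in IRF7 cells and 37.6 to 56.0 in base vector cells. Ndufab1 gave -0.17, -0.09 and -0.00. The 3 measured probes of Ndufab1 thus ranged from a value that passed to one at 0.

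**Figure D4:**
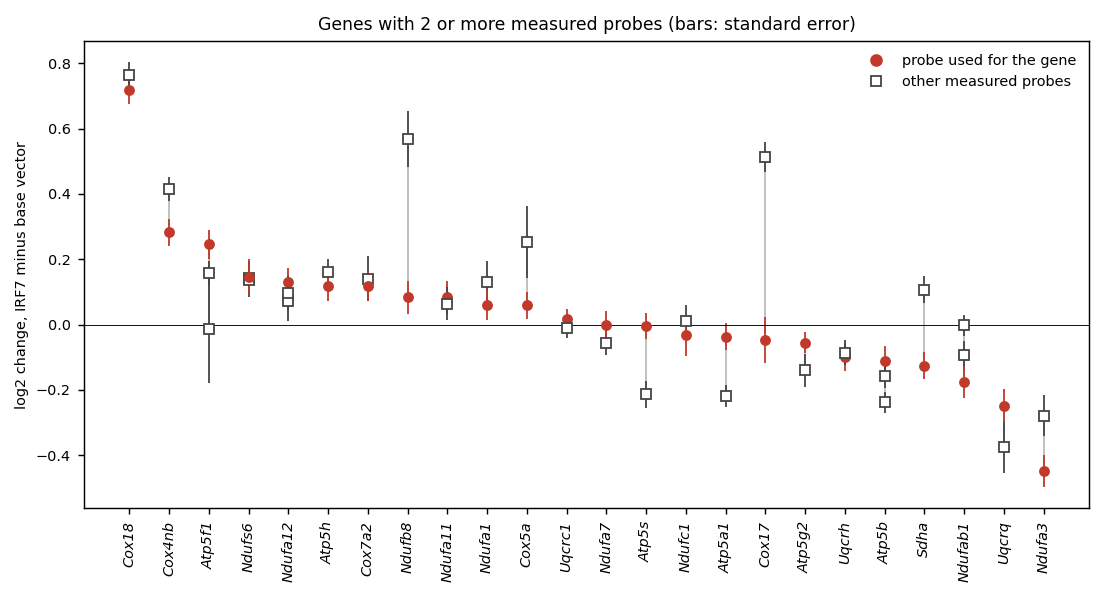
For 24 genes with at least 2 measured probes, the log2 change (IRF7 minus base vector, vertical axis) of the probe used is a filled circle and those of the other probes are open squares, with standard errors as bars. Cox18 has its probes together near 0.7, Cox17 has them 0.561 apart, and Sdha has 1 on each side of 0.

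The rest of the mitochondrial machinery, from 7 lists of 185 tested genes, was described for comparison. Of these 84 were higher in IRF7 cells and 45 were lower, 45.4% and 24.3% where 31.8% and 29.0% of all genes were. With the slide as a block 59 were higher and 28 lower, where 23.5% and 22.4% of all genes were. The 13 of them on chromosome 7 were all lower, 9 of them also with the slide as a block, where 66.6% of the other tested genes of that chromosome were lower over all arrays. From each list, up to 3 genes in each direction with the smallest p are named. The protein import list had 14 of 23 higher, 5 lower and a median of 0.23, and 12 higher and 2 lower with the slide as a block. Higher were Timm9 (0.87) and Timm8a1 (0.74), chaperones of the intermembrane space, and Tomm5 (0.62) of the outer membrane pore. Timm17a (0.71) of the inner membrane channel, chosen after its value was seen, had a larger change than Tomm5. Lower were Timm50 (-0.39) on chromosome 7, Timm21 (-0.35) and Tomm34 (-0.22), the last with a change of -0.12 that did not pass with the slide as a block (limma adjusted p = 0.1016). The mitochondrial ribosome list had 34 of 78 higher, 16 lower and a median of 0.11, and 24 higher and 8 lower with the slide as a block. Mrps6 (0.63), Mrpl20 (0.61) and Mrpl13 (0.54) were higher, and Mrpl23 (-0.55), Mrps12 (-0.40) and Mrpl46 (-0.23), all on chromosome 7, were lower. Of the 16 lower genes 6 lie on that chromosome, and Mrps23 (-0.28) on chromosome 11, chosen after its value was seen, had a larger fall than Mrpl46.

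Among genes whose products work beside the complexes, Cycs and Higd1a had changes larger than that of any of the 84. Cytochrome c, Cycs, which carries electrons between complexes III and IV, was higher by 0.80 (SE 0.0567, limma adjusted p = 0.000105). Higd1a, a small protein that binds complex IV, was higher by 0.81 and Slc25a5, an ADP/ATP carrier, by 0.31. Etfb, a subunit of the electron transfer flavoprotein encoded on chromosome 7, was lower by 0.68 on the log2 scale. In all 7 of the 14 genes of that list were higher and 1 was lower, with a median of 0.10. So 57.1% passed, where 60.8% of all genes did, 31.8% higher and 29.0% lower.

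The list of further assembly factors had 8 of 21 higher, 7 lower and a median of -0.01. In this list 71.4% passed, where 60.8% of all genes did, 31.8% higher and 29.0% lower. Ecsit (0.52), which helps to build complex I, Taco1 (0.29), which activates translation of a complex IV subunit, and Fastkd2 (0.27) were higher. Tmem126b (-0.63), a complex I factor on chromosome 7, Surf1 (-0.50), a complex IV factor, and Oxa1l (-0.35), an insertase of the same family as Cox18, were lower. The ubiquinone synthesis list had 4 of 10 higher and 6 lower, with Coq10b (1.30), Pdss1 (0.68), which makes the side chain, and Coq2 (0.26) higher, and Coq10a (-0.92), Coq8a (-0.74) and Coq6 (-0.27) lower. Coq10a and Coq10b, both of which bind ubiquinone, thus went in opposite directions.

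The citric acid cycle and pyruvate dehydrogenase list had 10 of 24 higher, 7 lower and a median of 0.04. In this list 70.8% passed, where 60.8% of all genes did, 31.8% higher and 29.0% lower. Pdp1 (0.93), a phosphatase that activates pyruvate dehydrogenase, was higher and Pdk2 (-0.88), a kinase that inactivates it, was lower. Of the other kinases of this enzyme, chosen after their values were seen, Pdk3 (0.56) was higher and Pdk1 (-0.48) lower. Idh3a (0.65) and Mpc1 (0.64), a subunit of the pyruvate carrier, were higher, and Idh2 (-1.18) on chromosome 7 and Idh3b (-0.29) were lower. The list of regulators of respiratory genes had 7 of 15 higher, 3 lower and a median of 0.10, with Mterf1a (0.61), Pprc1 (0.54), a coactivator, and Yy1 (0.31) higher, and Tfb1m (-0.32), Creb1 (-0.17) and Tfb2m (-0.16) lower. With the slide as a block neither Creb1 nor Tfb2m passed (limma adjusted p = 0.061 and 0.2327). Nrf1, whose product binds many promoters of respiratory genes, had a change of -0.06 (SE 0.0354, limma adjusted p = 0.195) and Tfam one of 0.04 (SE 0.0795, limma adjusted p = 0.676), both chosen after their values were seen.

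The promoters of the subunit genes are known for sites of NRF1, of ETS factors such as GABP and of YY1. RefSeq promoters of assembly GRCm38.p6, from 250 bases before the start of the gene to 50 after it, matched 64 of the 78 subunit genes. On either strand GCGCATG, from the NRF1 site, was found in 20.3% of these, against 4.04% of all 27025 promoters and 7.0% of the 9963 of tested genes. The ETS core CCGGAAG was found in 23.4%, against 9.12% of all and 18.2% of those tested, and the YY1 core AAGATGG in 15.6%, against 6.48% and 7.5%. CCAAT was found in 40.6%, against 37.9% and 38.9%. GAAANNGAAA, part of the site bound by interferon regulatory factors, was found in 3.12%, against 3.49% and 2.99%. By call, the NRF1 letters stood in 4 of 16 promoters of genes higher in IRF7 cells, 1 of 10 of genes lower and 8 of 37 that did not pass, and GAAANNGAAA in 0, 2 and 0. A match is a description of the letters and not a bound site.

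The promoters of Sdhb, which was higher in IRF7 cells, and Cox6b1, which was lower, are shown as examples, the first with the NRF1 letters and the second without. The letters occurred among genes of every call, so these examples show no link with direction. Capitals mark matches to the motifs above on either strand, none of which overlap. They lie at chr4:140961021-140961320 on the plus strand and chr7:30626065-30626364 on the minus strand of GRCm38.p6.
Sdhb promoter: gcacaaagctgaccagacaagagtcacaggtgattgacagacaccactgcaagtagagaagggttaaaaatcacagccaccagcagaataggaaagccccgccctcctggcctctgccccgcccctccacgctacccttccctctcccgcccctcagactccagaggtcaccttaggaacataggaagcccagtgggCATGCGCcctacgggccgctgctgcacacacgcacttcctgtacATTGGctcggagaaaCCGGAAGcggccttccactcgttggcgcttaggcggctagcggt
Cox6b1 promoter: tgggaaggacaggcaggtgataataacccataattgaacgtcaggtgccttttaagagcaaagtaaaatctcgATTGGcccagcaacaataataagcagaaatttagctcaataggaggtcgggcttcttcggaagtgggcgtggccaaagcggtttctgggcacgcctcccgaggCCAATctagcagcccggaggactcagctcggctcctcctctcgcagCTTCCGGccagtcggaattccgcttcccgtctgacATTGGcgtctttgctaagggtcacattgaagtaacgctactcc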

How the data were processed

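Total RNA of 6 cultures was measured on single-colour arrays, and the submitters' processing notes name Agilent Feature Extraction 9.5.3.1 as the software. The authors deposited for each spot a linear intensity that, per the file headers, had its background subtracted and was detrended (the processed signal), and flags of 0 or 1. Their deposited value table held the same intensity values, with a largest difference of 0 and column medians of 56.5 to 79.0, so it is linear, uncentred and unscaled. The 1639 control spots of 45018 and 111 to 121 outlier spots per array were left out. The 75th percentile was 1148 to 1458. On the IRF7 arrays 56.8 to 59.7% of spots were well above background, and on the base vector arrays 54.3 to 56.8%.

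The level was log2 of the processed signal minus the 75th percentile of the array. A probe entered if 3 of the 6 arrays read it well above background, with 1 probe per gene by highest mean signal. IRF7 was compared with base vector with limma 3.58.1 in R 4.3.3 (lmFit, eBayes, 4 residual and 1.64 prior degrees of freedom, Benjamini-Hochberg, threshold 0.05), checked on simulated data. Python 3.11.15, pandas 2.3.3 and matplotlib 3.10.9 did the rest.

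The members and lists were chosen with earlier results of these data known. Singly described were Irf7, up to 3 rises and 3 falls by size per complex and by smallest p per other list, genes with only a bound, chromosome 7 genes and genes whose probes disagreed; other names are marked. Of these, 1 is not reported here, though it counts in its groups. Names are those of the files; 4 of the 87 have newer symbols, and 20 further genes whose newer symbol meets the naming rule entered only under updated names. The alternatives were other background corrections, scalings, filters, probe rules, names, variance models, slide and replicate blocks, slide 1 alone and each array left out.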

Additional observations from a re-analysis of the deposited data

How the results depend on the processing

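The 2 arrays outside slide 1 were both base vector, so the slide block rests on 1 base vector array, and small changes cannot be told apart from the slide. Of the 23 called genes named by the rule for complexes, chromosome 7 and probes, 6 kept call and direction under all 19 alternatives and 3 turned under 1 of them, the values without scaling, where Sdhc was 0.0285, Sdha 0.0739 and Ndufab1 0.0243. Among uncalled genes Cox17 turned to 0.15 without scaling and to 0.23 over the mean of its probes, and Cox6b2 to -0.11 with the slide as a fixed block and on slide 1 alone. Cox17 passed higher over the mean of its probes (limma adjusted p = 0.0139). It passed lower without IRF7 replicate 1, with a change of -0.13 (limma adjusted p = 0.0276). The cause was not tested for any of these settings, save that the unscaled values hold the brighter IRF7 arrays. Cox10, Cox6b1 and Ndufa3 lost their calls without scaling and kept them elsewhere.

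Members called were 10 (4 higher, 6 lower) under median centring, 19 (10 and 9) with the slide as a fixed block, 23 (13 and 10) on slide 1 alone, 40 higher and 3 lower without scaling, and 26 lower under quantile normalization. Over all genes median centring called 6262, of which 2847 were higher, the values without scaling called 1713 lower, and without a filter on dim probes 14629 passed, 9847 of them lower. Among the medians of the complexes, quantile normalization gave -0.026 for complex I and -0.034 for complex II, median centring 0.000354 for complex II, the mean of all probes 0.092 for complex II, and updated names -0.028 for complex II and -0.041 for complex III. Without scaling the medians were 0.25, 0.23, 0.21, 0.27 and 0.19 for complexes I to V, 0.25 for all members, 0.25 for subunits, 0.18 for assembly factors and -0.23 for chromosome 7 members. Over the mean of probes, assembly factors had 0.12 and chromosome 7 members -0.36, and under quantile normalization subunits had 0.0015. Subunits alone, and the members without chromosome 7, gave medians within the replicate spread.

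For the other lists, medians without scaling were 0.30 for electron carriers, 0.19 for further assembly factors, 0.0724 for ubiquinone synthesis, 0.30 for regulators, 0.24 for the citric acid cycle, 0.31 for the mitochondrial ribosome and 0.43 for protein import. Quantile normalization gave -0.057 for further assembly factors, -0.16 for ubiquinone synthesis, 0.063 for regulators, -0.021 for the citric acid cycle, 0.048 for the ribosome and 0.16 for import. Median centring gave -0.16 for ubiquinone synthesis and 0.062 for regulators, the mean of probes 0.039 for electron carriers and 0.15 for regulators, and the slide block and slide 1 alone -0.099 for ubiquinone synthesis.

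With 1 array left out, 32 to 38 members were called, 17 to 25 higher and 13 to 19 lower. The main fit did not pair the samples by replicate number. The deviations of arrays with the same number correlated at 0.0392, 0.182 and 0.234, and those of arrays with different numbers at -0.189 to 0.00427. Each IRF7 array thus correlated best with its own number, weakly, and whether the numbers pair the cultures was not tested. With the replicate block 24 members were higher and 19 lower.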
